A study of Mus musculus with 20 samples.

Results

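The axon at the node of Ranvier, and the myelin that ends beside it, are built from a small set of adhesion, scaffold and matrix proteins, and 10 genes for them were followed in the cerebellum of 304Q knock-in mice. They were chosen by symbol for the place of their proteins at the node, the paranode or the juxtaparanode, with the ion channels left out. They are Ank3, Sptbn4, Nrcam, Nfasc, Hapln2, Bcan, Cntn1, Cntnap1, Cntn2 and Cntnap2. The choice was made with earlier results of these data known. The study had named Hapln2, printed as HPLN2, among oligodendrocyte genes that differed in these mice and in patients. Its call below is therefore not an independent result. All 10 were found among the 29200 genes counted and all 10 were among the 12153 tested, whose mean reached 50 counts. The 20 RNA-seq libraries stand for 20 mice of strain C57BL6/N, described by the study as males, in 4 groups of 5. WT/WT mice with unchanged alleles and homozygous 304Q/304Q mice, in which a long glutamine repeat was knocked into both alleles of ataxin-3 with zinc-finger nucleases, were taken at 2 months and at 12 months. The labels name ataxin-2 for the wild-type mice and a plain CAG repeat for the knock-in, whereas the study describes an interrupted repeat in the murine Atxn3 gene, and the study's description was followed. Atxn3 stays under its own promoter in these mice and is expanded in every cell, the expansion is carried by a single knock-in line, and the tissue was the whole cerebellum kept in RNAlater, so that every level is an average over its cells. The question was whether genes for the node and paranode differ between the genotypes at either age, and with age in either genotype.

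At the node, voltage-gated sodium channels are held in the axon membrane by ankyrin-G and beta-IV spectrin, and the axon's neurofascin and NrCAM are anchored to the same scaffold. A matrix of hyaluronan, link proteins and proteoglycans surrounds the nodal gap. On both sides of it, the glial loops of the myelin sheath attach to the axon at the paranode, where glial neurofascin meets a pair of axonal proteins, contactin-1 and Caspr. Beyond it, at the juxtaparanode, contactin-2 and Caspr2 hold potassium channels under the compact myelin. In the cerebellum, the axons of Purkinje cells and the incoming fibres of the white matter carry such nodes, while granule cell axons are not myelinated.

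The promoter windows of the 3 genes that passed the test between the genotypes at 12 months are shown first, since the results turn on these genes. They are the 250 bases before and 50 bases after the transcription start in RefSeq, on the GRCm38.p6 build, written 5′ to 3′ in the direction of the gene, in lower case, with matches to ACAAAG or ACAATG, the letters that SOX factors of oligodendrocytes are known to bind, in capitals. The windows are those of Hapln2 at chr3:88027462-88027761 on the minus strand, Cntn1 at chr15:92050915-92051214 on the plus strand and Cntnap2 at chr6:45059811-45060110 on the plus strand.
Hapln2: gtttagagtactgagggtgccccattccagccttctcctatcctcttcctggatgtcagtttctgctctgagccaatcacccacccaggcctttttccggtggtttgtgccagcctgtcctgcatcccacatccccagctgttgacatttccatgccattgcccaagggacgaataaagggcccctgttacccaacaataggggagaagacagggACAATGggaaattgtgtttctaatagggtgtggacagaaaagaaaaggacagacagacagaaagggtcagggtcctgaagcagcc
Cntn1: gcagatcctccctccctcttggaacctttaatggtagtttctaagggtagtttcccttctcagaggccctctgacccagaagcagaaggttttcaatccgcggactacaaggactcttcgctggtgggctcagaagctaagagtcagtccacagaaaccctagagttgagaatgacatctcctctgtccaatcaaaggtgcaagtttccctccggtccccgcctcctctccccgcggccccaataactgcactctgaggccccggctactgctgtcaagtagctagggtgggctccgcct
Cntnap2: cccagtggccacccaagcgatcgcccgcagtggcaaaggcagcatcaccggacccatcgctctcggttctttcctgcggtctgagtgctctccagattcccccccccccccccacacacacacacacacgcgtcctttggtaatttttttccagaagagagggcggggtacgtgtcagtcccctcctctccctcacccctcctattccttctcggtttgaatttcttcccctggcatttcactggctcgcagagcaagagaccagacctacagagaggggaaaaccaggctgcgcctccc
Both motifs were searched on both strands and do not overlap with each other. The window of Hapln2 held ACAATG once, starting at position -35 from the start site, and those of Cntn1 and Cntnap2 shown here held neither motif. Each of these 2 genes has a further window in the table, at another start site, that held ACAATG once, at chr15:92127878-92128177 for Cntn1 and chr6:47244146-47244445 for Cntnap2. Among the 12271 promoter windows of the genes tested, 7.27% held ACAATG and 19.6% held either motif, so the match is a description of these letters only. The window of Hapln2 had 52.0% GC and 2 CpG dinucleotides, against medians of 61.3% and 21.0 in all windows, that of Cntn1 had 55.3% and 9, and that of Cntnap2 had 59.7% and 14. In all, 8 of the 10 genes had windows in this table, 15 windows together. Ank3 and Cntnap1 had none.

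The 10 genes lie on 8 chromosomes of GRCm38, with a pair of neighbours on chromosome 1 and another on chromosome 3. Cntn2 (ENSMUSG00000053024, 132509427 to 132543256) and Nfasc (ENSMUSG00000026442, 132564690 to 132741797) are 21433 bases apart on chromosome 1. Bcan (ENSMUSG00000004892, 87987531 to 88000230) and Hapln2 (ENSMUSG00000004894, 88021750 to 88027583) are 21519 bases apart on chromosome 3, so that a matrix proteoglycan and a matrix link protein are neighbours. Cntn1 (ENSMUSG00000055022) spans chromosome 15 from 92051165 to 92341967 and Cntnap2 (ENSMUSG00000039419) chromosome 6 from 45059357 to 47304213. Reads were counted over all exons of a gene, which neither separates the glial from the neuronal isoform of Nfasc nor the isoforms of Ank3 and Cntnap2. Exons of Sptbn4 share 134 bases with Gm20479 on the same strand and 243 bases with Gm44924 on the other, and exons of Cntnap1 share 233 bases with Plekhh3 on the opposite strand. Whether the counting used the strand is not given in the sources used here, which leaves these small stretches uncertain.

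Of the 20 libraries, 19 held between 11385380 and 16606406 counts and 304Q/304Q replicate 1 of 2 months held 27636687. At 12 months, Atxn3 itself had 201.6 to 234.1 normalized counts in the WT/WT group against 180.7 to 220.2 with the knock-in, and at 2 months 239.9 to 332.1 against 158.2 to 240.6, which does not check the labels because the repeat is not read by a count per gene. Normalized counts are counts scaled by the TMM method to the mean library size. The markers of choroid plexus, a tissue that borders the cerebellum, summed to 404 to 2100 CPM in 6 libraries, against 30.4 CPM or less in the others. CPM are counts relative to the TMM-scaled library total of the genes tested. The 6 libraries were 304Q/304Q replicate 3 of 2 months, WT/WT replicates 1, 2 and 5 of 12 months and 304Q/304Q replicates 1 and 3 of 12 months. Skeletal muscle markers reached 216 CPM in 304Q/304Q replicate 5 of 12 months and 12.5 CPM or less elsewhere. The libraries also differed in how the counts of a gene followed its GC content. The Spearman rho between GC content and the deviation of a library from the mean of all libraries, across genes, was 0.38 to 0.48 in WT/WT replicates 2 to 5 of 12 months and -0.22 in replicate 1, and it was -0.2 to 0.092 in the 304Q/304Q mice of that age. At 2 months it lay between -0.45 and 0.25 in WT/WT and between -0.42 and 0.15 in 304Q/304Q mice. The 10 genes at 12 months, and their calls in the other comparisons, are therefore given also without these 6 libraries and with the trends of GC content and gene length removed, where that changes a call or moves a value by more than 1.5 times. Without the 6 libraries, 5 WT/WT and 4 304Q/304Q mice of 2 months and 2 WT/WT and 3 304Q/304Q mice of 12 months are left. The GC rho of those left at 12 months was 0.48 and 0.38 in WT/WT and -0.2 to 0.092 in 304Q/304Q mice. Choroid plexus tissue, smaller groups and the GC trend cannot be told apart in that fit.

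Per kilobase of exon, with the length taken over all annotated exons of a gene, the paranodal Cntnap1 had the highest level of the 10. Its mean over the 20 libraries was 71.4 CPM per kilobase, with a range of 62 to 81. It was followed by Bcan at 53.5 (44.6 to 64), Cntn2 at 44.5 (39.3 to 48.7) and Cntn1 at 35.4 (29 to 38.9). Nfasc had 29 CPM per kilobase (23.7 to 32.5), Sptbn4 23.7 (18.2 to 27.3), Nrcam 16.7 (13.9 to 20.8) and Ank3 15.3 (12.5 to 19.4). The lowest were Hapln2 at 10.5 (6.47 to 16.1) and Cntnap2 at 8.42 (7.11 to 10.5). Neighbours in this order had ranges that overlapped, with the exception of Cntn2 and Cntn1. The annotated exons exceed the longest transcript unequally, with 34838 against 9963 bases for Ank3 and 9433 against 5671 for Cntn1. For Cntnap1 they are 5875 against 5440 bases. The order therefore depends on the length used, and another length was not tried. The widest relative range belonged to Hapln2, the gene with the fewest counts.

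**Figure D1:**
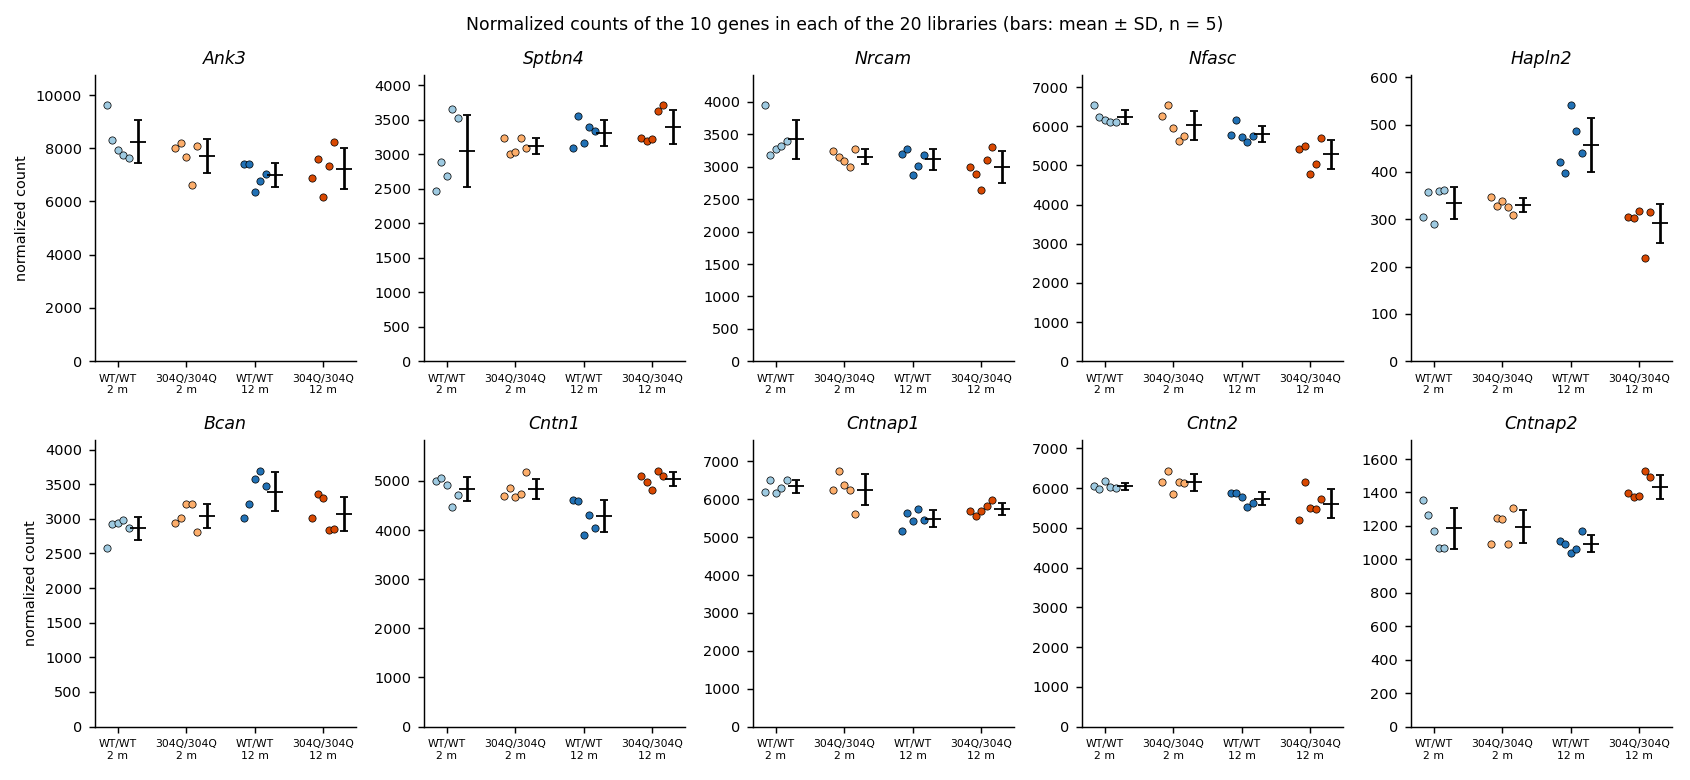
Normalized counts (vertical axes, each starting at 0) of the 10 genes in each library, by genotype and age in months (m); points are mice and the bars beside them the mean ± SD of 5. The 5 WT/WT mice of 12 months stand above all other mice for Hapln2 (398 to 541), and the 5 304Q/304Q mice of 12 months stand above all others for Cntnap2 (1374 to 1531).

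At 2 months, none of the 10 genes passed the test between 304Q/304Q and WT/WT mice (0 of 10 at an edgeR adjusted p of 0.05 or less, and 0 at an unadjusted p under 0.05), where 0.0494% of all genes tested passed it, 6 in number, and 674 had an unadjusted p under 0.05. DESeq2 called 0 of the 10 as well, and 22 of all genes. The log2 fold changes ran from -0.12 for Nrcam (SE 0.061, edgeR adjusted p = 0.883) to 0.09 for Bcan (SE 0.0632, edgeR adjusted p = 0.931). For every gene the groups overlapped, where 1.05% of all genes had groups that did not. Hapln2, the link protein of the nodal matrix, had 304, 357, 291, 359 and 361 normalized counts in the 5 WT/WT mice and 347, 328, 339, 326 and 310 in the 5 304Q/304Q mice. The 304Q/304Q values all lay within the WT/WT range, and the 95% interval of the log2 difference was -0.22 to 0.18. The log2 fold changes of the others were -0.10 for Ank3, -0.05 for Nfasc, -0.02 for Cntnap1, 0 for Cntn1, 0.01 for Cntnap2, 0.02 for Cntn2 and 0.03 for Sptbn4, with edgeR adjusted p of 0.933 to 1. The 95% intervals of the 9 genes beside Hapln2 lay between -0.24 and 0.21.

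At 12 months, 3 of the 10 genes passed the test, in 2 directions: Hapln2 was lower and Cntn1 and Cntnap2 were higher in 304Q/304Q mice. Of all genes tested, 12.5% passed it, of which 7.3% lower and 5.23% higher. These 3 genes were also those whose groups did not overlap, which held for 8.94% of all genes. With the study's threshold of 0.5 on the log2 fold change added, Hapln2 alone was a DEG, against 3.09% of all genes. The median log2 fold change of the 10 genes was 0.004 and that of all genes -0.004.

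Of the 10 genes, the matrix gene Hapln2 had the largest difference. Hapln2, made by oligodendrocytes and known to organize the hyaluronan matrix around the node, had 421, 398, 541, 486 and 441 normalized counts in WT/WT mice of 12 months, against 304, 303, 318, 218 and 315 with the knock-in. Every 304Q/304Q mouse lay below every WT/WT mouse, and 304Q/304Q replicate 4 lay apart from the other 4 of its group. The means of 457.5 ± 56.8 and 291.6 ± 41.6 (SD, n = 5) gave a log2 fold change of -0.65 (SE 0.102, edgeR adjusted p = 9.49e-05). It was -0.56 without that replicate and -0.88 without the 6 libraries with choroid plexus RNA, which leaves 2 WT/WT and 3 304Q/304Q mice of this age. The call was kept in these, in the other 11 alternatives and with each of the 10 libraries of this age left out. Since a bulk library averages over cells, fewer cells of a type and less RNA per cell cannot be told apart here or in any result that follows. Bcan, brevican, a proteoglycan of astrocytes and oligodendrocytes that binds hyaluronan at the node, had mean counts of 3394 ± 278 and 3072 ± 248 (SD, n = 5) and a log2 fold change of -0.14 (SE 0.0632, edgeR adjusted p = 0.142). Its groups overlapped, with 3013 to 3697 for WT/WT against 2839 to 3364 for 304Q/304Q, and it passed the test without WT/WT replicate 1 (-0.18, edgeR adjusted p = 0.0452). With the GC and length trends removed it was -0.05 (edgeR adjusted p = 0.569), and without the libraries with choroid plexus RNA -0.27 (edgeR adjusted p = 0.0692).

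At the paranode, Cntn1, contactin-1, the axonal partner that glial neurofascin binds, had normalized counts of 4612, 4598, 3892, 4312 and 4045 in the WT/WT group against 5101, 4971, 4816, 5211 and 5094 with the knock-in. All 304Q/304Q values were above all WT/WT values, and the WT/WT mice spread more widely. The log2 fold change was 0.23 (SE 0.0515, edgeR adjusted p = 0.00369), and 0.14 with the GC and length trends removed (SE 0.0385, edgeR adjusted p = 0.0134). Cntnap1 encodes Caspr, which forms the paranodal junction in a complex with contactin-1, and its groups overlapped, with counts of 5173 to 5744 for WT/WT against 5566 to 5977 for 304Q/304Q. Its log2 fold change of 0.07 (SE 0.0459, edgeR adjusted p = 0.368) became 0.13 (SE 0.0398, edgeR adjusted p = 0.0339) with the GC and length trends removed, the alternative in which it was called. Nfasc, whose glial and neuronal isoforms sit at the paranode and node, had normalized counts of 5785, 6164, 5720, 5600 and 5752 in the WT/WT group against 5420, 5501, 4774, 5029 and 5699 with the knock-in. Of the latter, 304Q/304Q replicate 5 alone reached the WT/WT range. The log2 fold change of -0.14 (SE 0.051) had an edgeR adjusted p of 0.0841, which became 0.0345 without 304Q/304Q replicate 5 (-0.17). It was about as large as its standard error of 0.0723 without the libraries with choroid plexus RNA (-0.07, edgeR adjusted p = 0.606), and -0.07 with surrogate variables in edgeR (adjusted p = 0.462).

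At the juxtaparanode, Cntnap2, which encodes Caspr2, the partner of contactin-2 in clustering potassium channels, had normalized counts of 1108, 1094, 1036, 1060 and 1169 in the WT/WT group against 1398, 1374, 1377, 1531 and 1490 with the knock-in. The groups were apart by more than the range of either. The means of 1093 ± 50.9 and 1434 ± 71.9 (SD, n = 5) gave a log2 fold change of 0.39 (SE 0.0687, edgeR adjusted p = 0.000361). Cntn2, contactin-2, which is made by neurons and by glia, had mean counts of 5732 ± 159 and 5612 ± 361 (SD, n = 5) and a log2 fold change of -0.03 (95% interval -0.12 to 0.06, edgeR adjusted p = 0.693). The call thus fell on 1 of the 2 partners at this site, and the difference between their changes was not tested.

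The scaffold of the node and its axonal adhesion molecule were not called. Ank3, ankyrin-G, which gathers sodium channels, had a log2 fold change of 0.05 (95% interval -0.1 to 0.19, edgeR adjusted p = 0.711), 0.23 without the libraries with choroid plexus RNA (SE 0.0997, edgeR adjusted p = 0.18) and 0.03 with the GC and length trends removed. For Sptbn4, beta-IV spectrin, which ties ankyrin-G to the actin cytoskeleton, it was 0.04 (95% interval -0.12 to 0.2, edgeR adjusted p = 0.796), and 0.10 and 0.12 in these alternatives. For Nrcam, an adhesion molecule bound by ankyrin-G, it was -0.06 (95% interval -0.18 to 0.06, edgeR adjusted p = 0.583), and 0.07 and -0.10 in the same alternatives, of which neither was called. In each of these genes the groups overlapped.

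**Figure D2:**
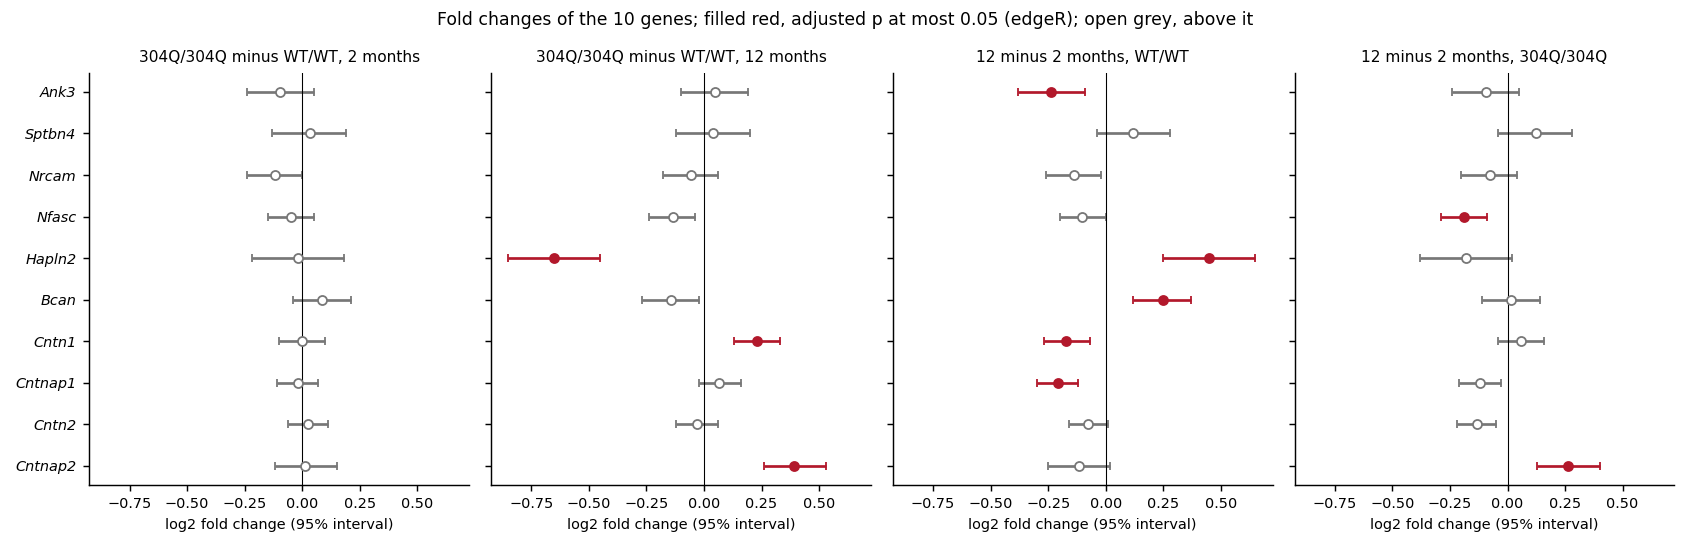
Log2 fold changes (horizontal axes) of the 10 genes in 4 comparisons with 95% intervals; filled red points have an adjusted p of 0.05 or less in edgeR. No gene is filled between the genotypes at 2 months, and Hapln2 at -0.65 and Cntnap2 at 0.39 lie farthest from 0 at 12 months.

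The change of genotype difference between the ages was tested in the same model, in which 1.95% of all genes passed, 0.642% upward and 1.31% downward from 2 to 12 months. It passed for 2 of the 10 genes, 1 in each direction. For Hapln2 the 12-month minus the 2-month difference was -0.63 on the log2 scale (SE 0.143, edgeR adjusted p = 0.0184), and every library left out in turn kept the call (edgeR adjusted p of 0.0113 to 0.0453). The call was lost in 3 of 11 other alternatives, among them surrogate variables as covariates in edgeR (-0.52, edgeR adjusted p = 0.051). For Cntnap2 the difference between the ages was 0.38 (SE 0.097, edgeR adjusted p = 0.0397). That call was lost with 13 of the 20 libraries left out in turn, namely WT/WT replicates 1, 2 and 3 and 304Q/304Q replicates 1, 3 and 4 of 2 months and WT/WT replicates 2, 3 and 4 and 304Q/304Q replicates 1, 2, 4 and 5 of 12 months, with values of 0.33 to 0.39 and edgeR adjusted p of 0.0507 to 0.0898. It was 0.20 with the GC and length trends removed (edgeR adjusted p = 0.185), 0.48 without the libraries with choroid plexus RNA (edgeR adjusted p = 0.102) and 0.38 with no filter on low counts (edgeR adjusted p = 0.0652), and was called in none of these. Cntn1, at 0.23 (SE 0.0728), had an edgeR adjusted p of 0.108, and 0.041 without WT/WT replicate 1 of 12 months (0.26). The values of the others were -0.23 for Bcan, 0.15 for Ank3, 0.09 for Cntnap1, -0.09 for Nfasc, 0.06 for Nrcam, -0.06 for Cntn2 and 0.01 for Sptbn4, with edgeR adjusted p of 0.205 to 0.986.

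With age, the WT/WT mice differed in 5 of the 10 genes, against 11.5% of all genes. Hapln2 and Bcan were higher at 12 months (6.08% of all genes), and Ank3, Cntn1 and Cntnap1 were lower (5.42%). Hapln2 had mean counts of 334.6 ± 34 and 457.5 ± 56.8 (SD, n = 5) and a log2 fold change of 0.45 (SE 0.101, edgeR adjusted p = 0.00614), with no overlap between the ages. Cntnap1 had 6205, 6522, 6163, 6301 and 6515 normalized counts at 2 months and 5173, 5647, 5437, 5744 and 5446 at 12 months. Its fall by 0.21 on the log2 scale (SE 0.0458, edgeR adjusted p = 0.00546) left the ages apart, but lost its call without the libraries with choroid plexus RNA (-0.18, edgeR adjusted p = 0.083). The ages did not overlap in 5 genes, the called Hapln2, Bcan, Ank3 and Cntnap1 and the uncalled Cntn2 (-0.08, edgeR adjusted p = 0.263), against 6.57% of all genes. The others had log2 fold changes of 0.12 for Sptbn4, -0.14 for Nrcam, -0.10 for Nfasc and -0.12 for Cntnap2 (edgeR adjusted p of 0.141 to 0.362).

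The other 3 calls in WT/WT mice rested on fewer libraries. Bcan was higher by 0.25 (SE 0.0632, edgeR adjusted p = 0.0141), and by 0.21 without WT/WT replicate 1 of 2 months (edgeR adjusted p = 0.0515). Ank3 had a log2 fold change of -0.24 (SE 0.0741, edgeR adjusted p = 0.0386). It lost the call without any of WT/WT replicates 1, 2 and 3 of 2 months and 3, 4 and 5 of 12 months (-0.25 to -0.18, edgeR adjusted p of 0.0537 to 0.139). Cntn1 had one of -0.17 (SE 0.0515, edgeR adjusted p = 0.0335) and lost the call without any of the same 6 libraries (-0.17 to -0.14, edgeR adjusted p of 0.0573 to 0.112). With the GC and length trends removed, Hapln2 (0.31, edgeR adjusted p = 0.0314) and Cntnap1 (-0.27, edgeR adjusted p = 9.29e-05) were the genes called, while Bcan gave 0.06 (edgeR adjusted p = 0.574), Ank3 -0.10 (edgeR adjusted p = 0.153) and Cntn1 -0.03 (edgeR adjusted p = 0.727).

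In 304Q/304Q mice, 2 of the 10 genes passed the age test, 1 higher and 1 lower, against 7.26% of all genes (3.08% higher and 4.18% lower). Cntnap2 had 1089, 1246, 1240, 1093 and 1309 normalized counts at 2 months and 1398, 1374, 1377, 1531 and 1490 at 12 months, so that the ages did not overlap, as in 7.8% of all genes. Its log2 fold change was 0.26 (SE 0.0683, edgeR adjusted p = 0.0164), and it missed the threshold without 304Q/304Q replicate 1 or 4 of 2 months or replicate 4 of 12 months (0.23 to 0.24, edgeR adjusted p of 0.0522 to 0.063). Nfasc had a log2 fold change of -0.19 (SE 0.051, edgeR adjusted p = 0.0219), with overlapping ages, and missed it without 304Q/304Q replicate 1 or 2 of 2 months or replicate 3 or 4 of 12 months (-0.17 to -0.15, edgeR adjusted p of 0.0662 to 0.0912). Neither was called without the libraries with choroid plexus RNA (0.30, edgeR adjusted p = 0.0801 for Cntnap2, and -0.16, edgeR adjusted p = 0.18 for Nfasc). Hapln2, which rose with age in WT/WT mice, had a log2 fold change of -0.18 (95% interval -0.38 to 0.02, edgeR adjusted p = 0.36). Cntnap1 (-0.12, edgeR adjusted p = 0.122) was called without 304Q/304Q replicate 5 of 2 months (-0.16, edgeR adjusted p = 0.0284), and Cntn2 (-0.13, edgeR adjusted p = 0.0721) without 304Q/304Q replicate 2 of 12 months (-0.17, edgeR adjusted p = 0.0181). With surrogate variables in edgeR both were called (-0.12, adjusted p = 0.0446 for Cntnap1, and -0.14, adjusted p = 0.0172 for Cntn2). The others, at -0.09 for Ank3, 0.12 for Sptbn4, -0.08 for Nrcam, 0.02 for Bcan and 0.06 for Cntn1, had edgeR adjusted p of 0.463 to 0.935. The age comparisons use the same libraries as the genotype comparisons, so the values stand side by side and are not independent of each other.

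The GC trend of the libraries moved with the genotype at 12 months, and so did the GC content of the genes called. The median GC content was 45.9% for the 636 genes called higher, 53.7% for the 887 called lower and 49.7% for all genes tested. GC content was that of the longest transcript of a gene. Hapln2, which was lower, has 57.4% GC, and Cntn1 and Cntnap2, which were higher, have 43.6% and 44.5%. WT/WT replicate 1 of 12 months had a GC rho of -0.22, below those of all 304Q/304Q mice of its age. Its Hapln2 count of 421, in a group of 398 to 541, was above the highest 304Q/304Q count of 318. Its Cntn1 count of 4612, the highest of its group, was below their lowest of 4816, and its Cntnap2 count of 1108 was below their lowest of 1374. These are values of a single library, and the part of the GC trend in the differences was not tested with them.

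**Figure D3:**
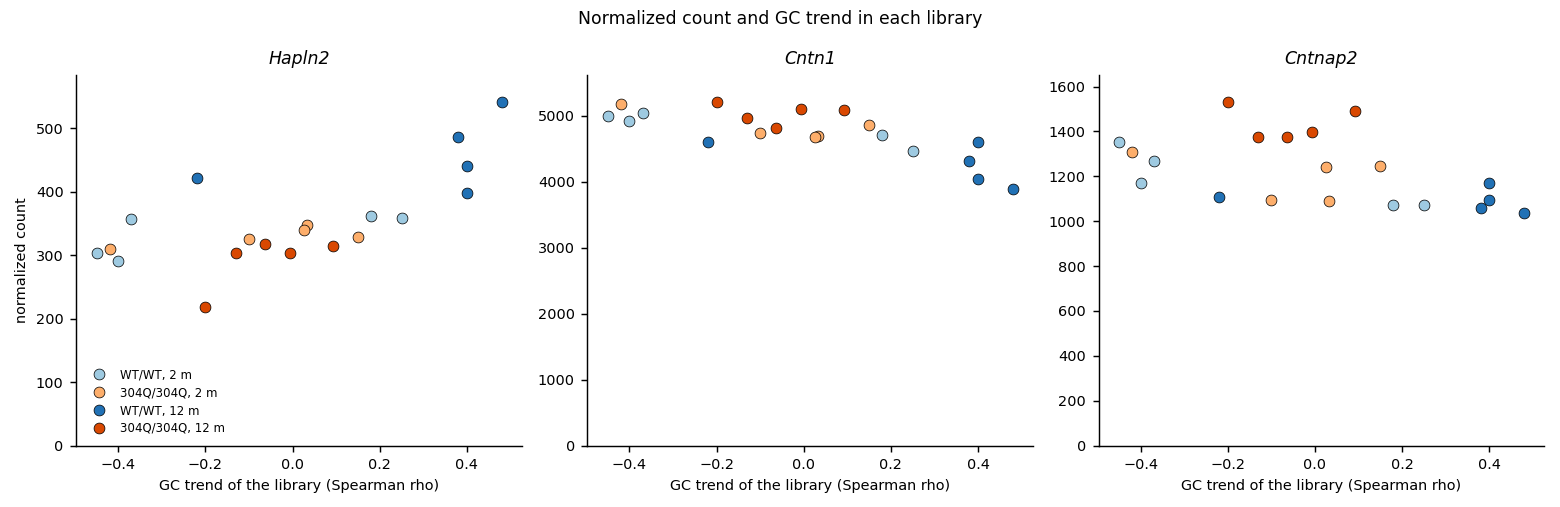
Normalized counts (vertical axes, starting at 0) of the 3 genes called at 12 months against the GC trend of each library (horizontal axes, Spearman rho between GC content and deviation across genes), coloured by group. WT/WT replicate 1 of 12 months is a single library at a rho of -0.22, and it holds choroid plexus RNA. It has counts outside the range of the 304Q/304Q mice of 12 months and the highest Cntn1 count of its group.

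With the GC and length trends of each library removed, 14.1% of all genes passed the test between the genotypes at 12 months and 4 of the 10 genes did. Hapln2 had a log2 fold change of -0.57 (SE 0.0892, edgeR adjusted p = 6.05e-05) and Cntnap2 one of 0.30 (SE 0.0537, edgeR adjusted p = 0.000262). The values of Cntn1 and Cntnap1 stand above. Cntn2 turned from -0.03 to 0.02 (edgeR adjusted p = 0.801), which is within its standard error of 0.0411, and to 0.03 without the libraries with choroid plexus RNA (edgeR adjusted p = 0.803).

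**Figure D4:**
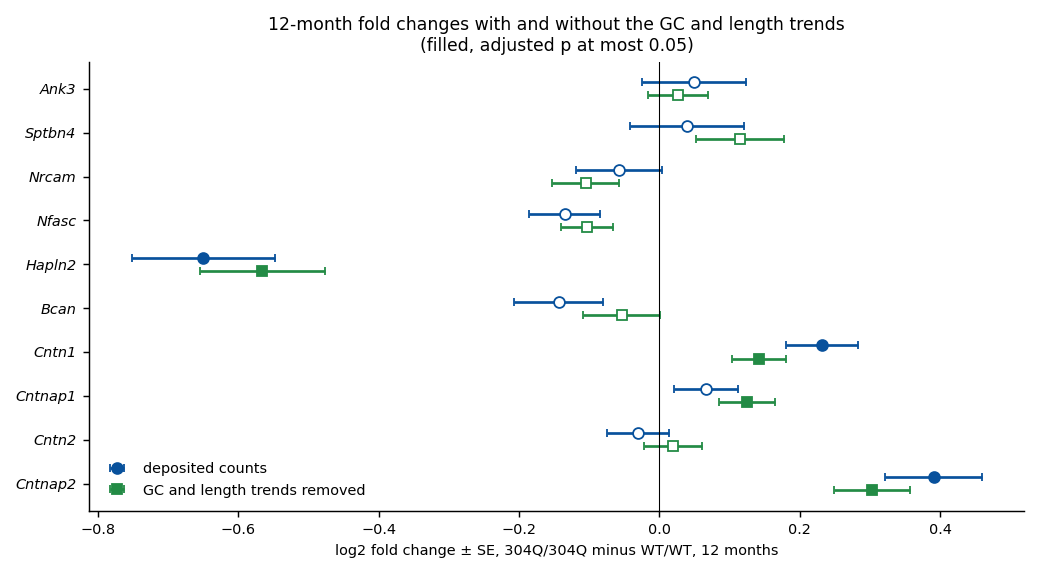
Log2 fold changes ± SE (horizontal axis) of the 10 genes between the genotypes at 12 months, from the deposited counts (blue circles) and with the GC and length trends of each library removed (green squares); filled symbols have an adjusted p of 0.05 or less in edgeR. Hapln2 lies at -0.65 and -0.57, Cntnap2 at 0.39 and 0.30, and Cntn1 at 0.23 and 0.14.

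Around the 10 genes stand lists of their partners, described by counts and medians of the same edgeR test and beside the 12.5% of all genes called at 12 months. Among 19 scaffold and cytoskeleton partners, 1 was called higher and 2 lower at 12 months, with a median log2 fold change of -0.003. Epb41l1, a protein 4.1 family member, was lower (-0.15, edgeR adjusted p = 0.0204). Epb41l3, protein 4.1B, which links Caspr and Caspr2 to the axonal cytoskeleton, was higher (0.13, edgeR adjusted p = 0.0304). Of 9 adhesion relatives tested, out of 11, Chl1 (0.32, edgeR adjusted p = 0.0429), Cntn6 (0.23, edgeR adjusted p = 0.0472) and L1cam (0.20, edgeR adjusted p = 0.0236) were higher and Cntn3 was lower (-0.34, edgeR adjusted p = 0.0472), with a median of -0.04. Of these, Chl1 and Cntn6 missed the threshold with the GC and length trends removed (0.15, edgeR adjusted p = 0.0606, and 0.14, edgeR adjusted p = 0.296), as did Epb41l1 (-0.09, edgeR adjusted p = 0.081).

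The matrix list, with 7 of 11 genes tested, had 2 genes higher and 1 lower at 12 months, with a median of 0.16. Tnc, tenascin-C, had mean counts of 273 ± 55.1 in the WT/WT and 434.6 ± 50.7 in the 304Q/304Q group (SD, n = 5) and a log2 fold change of 0.67 (edgeR adjusted p = 0.000915). Ncan, neurocan, a relative of brevican, was higher by 0.45 (edgeR adjusted p = 0.00113). Hapln4, the link protein of perineuronal nets and a paralogue of Hapln2, was lower (log2 fold change -0.22, edgeR adjusted p = 0.0243). The matrix genes thus included calls in both directions.

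Of 17 ion channel genes tested, out of 19, 2 were higher and 2 lower, with a median of -0.001. Kcnk2, the potassium channel TREK-1 found at nodes, had mean counts of 205.1 ± 35.4 in the WT/WT and 360.7 ± 21.4 in the 304Q/304Q group (SD, n = 5) and a log2 fold change of 0.81 (edgeR adjusted p = 4.37e-05). Scn4b, a sodium channel beta subunit, was lower (-0.49, edgeR adjusted p = 2.39e-07). Scn2a, the sodium channel of immature nodes and unmyelinated axons, was higher by 0.40 (edgeR adjusted p = 0.00435). The juxtaparanodal channels that Caspr2 clusters, Kcna1 and Kcna2, were in the list and not among its calls.

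Of 9 genes of the glial loops tested, out of 10, Ermn was called lower (-0.35, edgeR adjusted p = 0.00886), and the median was -0.25. All 4 neurofilament genes, which set the calibre of myelinated axons, were lower, with Nefh at -0.48 (edgeR adjusted p = 0.000206) and a median of -0.30. With the GC and length trends removed, Ina, at -0.16, missed the threshold (edgeR adjusted p = 0.075), and the other 3 kept it. In that fit Ermn (-0.54, edgeR adjusted p = 2.21e-05) was joined by Ugt8a, an enzyme of myelin lipid synthesis (-0.55, edgeR adjusted p = 0.000139). The fit called 2 scaffold partners higher and 2 lower, 3 matrix genes higher and 2 lower, and 1 adhesion relative in each direction. These lists and the 10 genes were chosen with earlier results of these data known, and the counts describe them only.

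**Figure D5:**
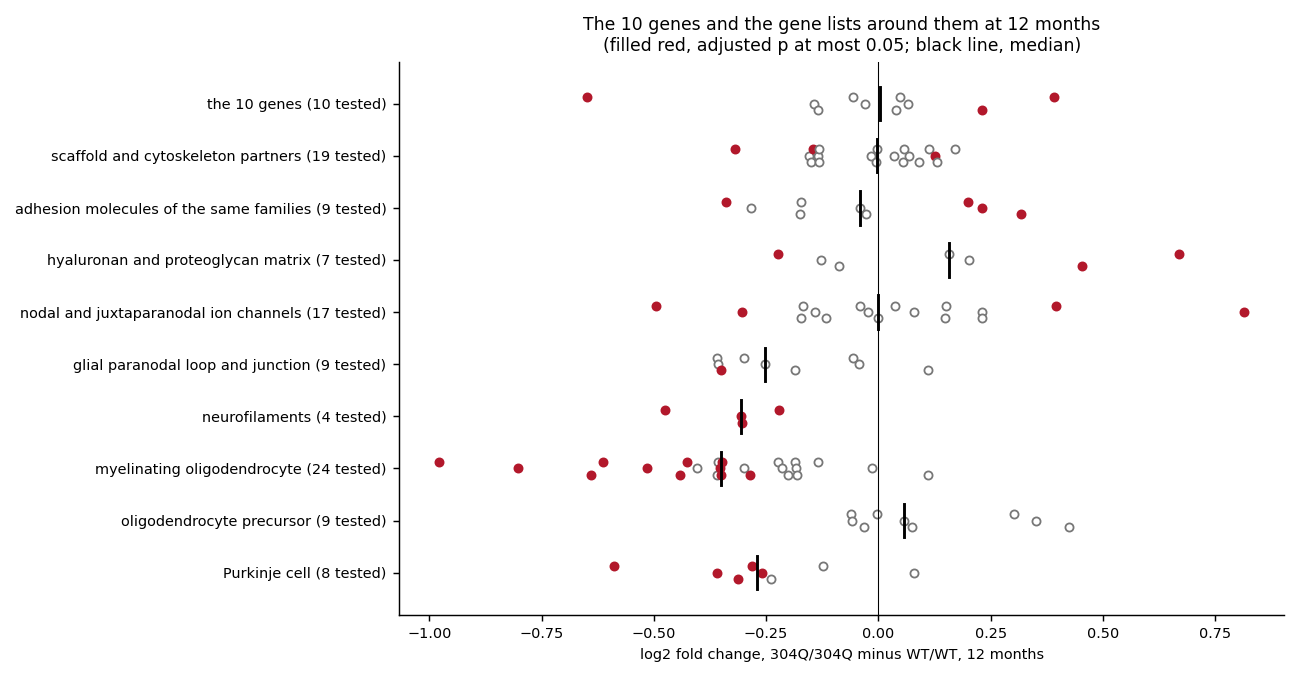
Log2 fold changes between the genotypes at 12 months (horizontal axis) for the 10 genes and for 9 gene lists; each point is a gene, filled red at an adjusted p of 0.05 or less in edgeR, and black lines are medians. Points of the 10 genes and of the channel list lie on both sides of 0, while 11 of 24 oligodendrocyte genes are called lower and none higher.

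Marker lists moved beside these results at 12 months, and their part in the differences of the 10 genes was not tested except where given. Of 24 genes of myelinating oligodendrocytes, 11 were called lower and 0 higher, with a median of -0.35, and the list summed to 7100 to 7690 CPM in the WT/WT group against 4590 to 6440 CPM with the knock-in, with no overlap. Mobp, a myelin protein gene, was the gene of this list with the lowest adjusted p (-0.80, edgeR adjusted p = 1.3e-08). At 2 months, Mal, another myelin protein gene, was called (-0.39, edgeR adjusted p = 0.00668). With the GC and length trends removed, 3 of the 24 were called lower at that age, where 0.156% of all genes were called. They were Mal (-0.40, edgeR adjusted p = 0.000621), Car2 (-0.35, edgeR adjusted p = 0.00662) and Mobp (-0.34, edgeR adjusted p = 0.0131). Of 9 genes of oligodendrocyte precursors 0 were called at 12 months. Of 8 Purkinje cell genes 5 were lower, and the list summed to 6070 to 6990 CPM against 5110 to 5670 CPM. Lower calls numbered 3 of 11 for astrocytes, 2 of 8 for inhibitory interneurons, 0 of 7 for granule cells, 1 of 5 for endothelial cells, 4 of 5 for blood, 0 of 4 for meninges and 0 of 3 for choroid plexus. Higher calls were 1 of 7 for microglia and 2 of 2 for skeletal muscle, the latter in the group that holds 304Q/304Q replicate 5. With the GC and length trends removed, lower calls at 12 months were 12 of 24 for myelinating oligodendrocytes, 6 of 8 for Purkinje cells and 6 of 11 for astrocytes, with 1 astrocyte gene higher. No marker list was at 0 in any library.

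Hapln2, Nfasc and Cntn2 are transcribed in oligodendrocytes, wholly or in part, and were therefore also compared with the mean of the 24 oligodendrocyte genes in the same mouse, as a difference of log2 CPM. For Hapln2 this difference was -1.52 ± 0.173 for WT/WT against -1.82 ± 0.198 for 304Q/304Q mice of 12 months (SD, n = 5), a change of -0.30 with the knock-in (2-sided exact permutation test over 252 splits, p = 0.0397, adjusted over 6 such tests 0.0794). Without 304Q/304Q replicate 5 it was -0.37 (exact permutation, adjusted p = 0.0476). At 2 months the difference was 0.11 in the other direction (exact permutation p = 0.0873, adjusted 0.131). For Cntn2 it was 2.13 ± 0.099 against 2.45 ± 0.195 at 12 months, higher by 0.32 (exact permutation p = 0.0159, adjusted 0.0714), and higher by 0.14 at 2 months (exact permutation p = 0.0238, adjusted 0.0714). For Nfasc it was higher by 0.22 at 12 months (exact permutation p = 0.111, adjusted 0.133) and by 0.07 at 2 months (exact permutation p = 0.175, adjusted 0.175). None of the 6 tests passed 0.05 after adjustment, and the smallest p that 5 against 5 mice allow is 0.00794. For Cntn2 the call was gained without 304Q/304Q replicate 3 or 5 of 12 months (0.38 and 0.27, exact permutation, adjusted p = 0.0238 and 0.0476) and without WT/WT replicate 1 or 304Q/304Q replicate 3 of 2 months (0.17 each, exact permutation, adjusted p = 0.0476). For Nfasc it was gained without 304Q/304Q replicate 3 of 12 months (0.31, exact permutation, adjusted p = 0.0238) and without WT/WT replicate 1 of 2 months (0.11, exact permutation, adjusted p = 0.0476).

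Within the groups, the 10 genes did not vary as a block from mouse to mouse. Over the 20 libraries, after subtraction of each group mean, Pearson's r of the 45 pairs ran from -0.81 (Nrcam and Bcan) to 0.83 (Ank3 and Nrcam), with a median of 0. The genes Ank3, Nrcam, Nfasc, Cntn1 and Cntnap2 had positive r with each other, for example 0.76 for Ank3 and Nfasc and 0.55 for Cntn1 and Cntnap2, and the matrix genes Hapln2 and Bcan had an r of 0.54. Between these sets the r was negative, as for Bcan and Cntn1 (-0.66) and Hapln2 and Cntn1 (-0.61), with the exception of Hapln2 and Nfasc (0). The points share the GC trend of their library, and Hapln2 and Bcan have 57.4% and 60.7% GC against 43.6% to 48.3% in Ank3, Nrcam, Cntn1 and Cntnap2. Nfasc, of the same set as these last genes, has 54.1%. The part of the GC trend in these values of r was not tested.

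By the same measure, over all genes tested, the 3 genes most like Hapln2 were Trappc2l (r = 0.85), Limk1 (0.79) and Serpinb1a (0.78). For Bcan they were Sox10 (0.88), Dtx3 (0.85) and Gpx4 (0.84), for Cntn1 Phc3 (0.95), Trpm7 (0.92) and Braf (0.90), and for Cntnap2 Qser1, Tnks2 and Grin2b (0.83 each). The GC content of each set lay near that of its gene for Bcan (58.7% to 61.8%), Cntn1 (40.1% to 43.8%), Cntnap2 (41.6% to 45.7%), Ank3 (49.2% to 51.4%) and Nfasc (50.5% to 55.1%). It reached farther from the gene for Hapln2 (43.6% to 57.6% against 57.4%), Sptbn4 (41.5% to 62.1% against 63.7%) and Nrcam (43.3% to 54.9% against 46.1%). The same held for Cntnap1 (47.6% to 52.1% against 56.1%) and Cntn2 (45.3% to 52.9% against 56%). The 3 genes most like Ank3 were Vps13d (0.95), Fat1 (0.93) and Ank2 (0.93), and for Nrcam they were Itpr1, 4932438A13Rik and Rere (0.89 each). Sptbn4 was most like Carmil2 (0.93), Snhg6 (0.90) and Grin2c (0.88), and Nfasc most like Glg1 (0.88), Sec16a (0.87) and Kif1a (0.86). For Cntnap1 they were Akap12 and Chst10 (0.81 each) and Ten1 (0.79). The lowest values belonged to Cntn2, with Dscam and Dyrk3 (0.70 each) and Sft2d1 (0.69).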

How the data were processed

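PolyA-enriched cerebellar mRNA of 20 mice, 5 per genotype and age, was sequenced as stranded libraries. Reads were aligned by the authors with STAR (2.4.5b in the submitters' processing notes) to GRCm38, and the counts per gene from Rsubread were deposited as whole numbers for 29200 Ensembl IDs, not normalized. In the study, DESeq2 and sva were then used. The table held 0 columns of other samples, and groups were taken from the labels.

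Here, TMM factors were computed in edgeR 4.0.16 (R 4.3.3). Genes under a mean of 50 counts were left out. The remaining 12153 entered 1 quasi-likelihood model of all 20 libraries with a term per group, and 5 contrasts were tested: genotype at each age, age per genotype, and their interaction. P-values were adjusted over all 12153 genes (Benjamini-Hochberg), calls had an adjusted p of at most 0.05, and DEGs a size of 0.5 or more on the log2 scale as well. Depth was 11385380 to 27636687 counts per library. The common biological coefficient of variation was 0.113, so the spread between mice limited the precision more than counting did. Log2 CPM used a prior count of 2. No 2 replicates agreed within sampling noise (chi-square per degree of freedom of at least 4.07). The fits were tested on simulated data with known changes at 12 months. There edgeR called 69 of 100 genes changed by 0.5 on the log2 scale and 99 of 100 changed by 1. It also called 14 unchanged genes. The simulated counts held no GC or length trend, so they cannot check the removal of such trends.

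Symbols and positions came from GENCODE M21 on GRCm38 (29150 IDs found; 16 symbols have several IDs). All 10 genes were named in every comparison, list genes if called between the genotypes, the largest first, and for each of the 10 the 3 genes with the highest r. The 10 genes and the lists were chosen with earlier results of these data known. Alternatives were DESeq2 1.42.0, 3 surrogate variables (sva 3.50.0) in either tool, other size factors and filters, fits of the compared groups alone, a replicate block, removal of GC and length trends (50 bins), the fold threshold, and single libraries left out. Leaving out the 6 libraries with over 100 CPM of choroid plexus markers was chosen after seeing the data. Protein sequences were not used here, and the values of some list genes are not reported here.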

Additional observations from a re-analysis of the deposited data

Results flagged for a closer look

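In 304Q/304Q mice of 12 months, replicate 4 had 218 normalized counts of Hapln2, apart from the other 4 mice of the group, which had 303 to 318. In WT/WT mice of 2 months, replicate 1 had 3949 normalized counts of Nrcam, above the 3189 to 3398 of the others. Both were the extreme of their group by Dixon's criterion among 40 groups of 5 mice tested, where chance gives about 1 in 20.

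The genotype difference changed between the ages for Hapln2, by -0.63 on the log2 scale from 2 to 12 months (edgeR adjusted p = 0.0184), and for Cntnap2, by 0.38 (edgeR adjusted p = 0.0397). Both come from the interaction term of the edgeR model. In Hapln2 all 5 304Q/304Q mice were below all WT/WT mice at 12 months and all within the WT/WT range at 2 months, and in Cntnap2 all 5 were above at 12 months. The GC trend of the libraries differed between the groups in the same comparison, and with it removed the values were -0.51 (edgeR adjusted p = 0.0294) and 0.20 (edgeR adjusted p = 0.185). The call of Hapln2 was lost in 3 of 11 alternatives other than leaving out single libraries.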

How the results depend on the processing

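The calls of Hapln2, Cntn1 and Cntnap2 at 12 months were kept in every alternative with a value, with log2 fold changes of -0.88 to -0.56, 0.14 to 0.31 and 0.30 to 0.48, and no gene of the 10 was called at 2 months in any. The log2 threshold of 0.5 left 1 of the 10 genes between the genotypes at 12 months, 0 with age in either genotype and 1 in the difference between ages. With age in WT/WT mice, 3 genes were called with surrogate variables in edgeR and 2 with the GC and length trends removed, with or without the replicate block, and 2 to 5 with a library left out. The calls over all genes moved too, from 1398 in the main fit to 819 with surrogate variables. They were 1096 and 914 with the trends removed, with and without the block, and 726 to 2542 with a library left out. With age in 304Q/304Q mice there were 4 with surrogate variables in either tool, 1 from only the groups compared, 0 without the libraries with choroid plexus RNA, and 0 to 3 with a library left out. Over all genes, calls went from 882 in the main fit to 1505 with surrogate variables in edgeR and 1659 in DESeq2. They were 948 from only the groups compared, 431 without the libraries with choroid plexus RNA and 670 to 969 with a library left out. The difference between ages had 1 call with surrogate variables in edgeR, with no filter, with the trends removed or without the libraries with choroid plexus RNA, and 1 to 3 with a library left out. All genes called in it numbered 237 in the main fit. They numbered 315, 195, 254 and 94 in these 4 alternatives, in the same order, and 155 to 558 with a library left out.

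Replicate numbers did not pair the mice, since same-numbered mice of the 2 genotypes had correlations of -0.32 to 0.08 in their deviations and those of the 2 ages -0.16 to 0.55, and 2 of 20 mice matched best with their own number. The replicate block left 0 calls in the difference between ages, with and without the trends removed. Hapln2 then had an edgeR adjusted p of 0.0974 with the trends removed and 0.0796 without that step.

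Relative to the oligodendrocyte genes, Cntn2 at 2 months reached 0.205 against the median of the list. With a library left out, Hapln2 at 12 months gave -0.374 to -0.237, Nfasc 0.052 to 0.111 at 2 and 0.143 to 0.31 at 12 months, and Cntn2 0.115 to 0.171 and 0.269 to 0.385.

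Signs turned in values that missed the threshold before and after. With the trends removed, without and with the replicate block, these were Nrcam between ages (-0.024 and -0.0267), Bcan with age in 304Q/304Q (-0.0289 and -0.0313), Cntn2 at 12 months (0.0196 and 0.0179) and Cntnap2 with age in WT/WT (0.0895 and 0.0872). Without the libraries with choroid plexus RNA they were Nrcam (0.0699) and Cntn2 (0.0306) at 12 months and Cntnap2 at 2 months (-0.0025). With surrogate variables Bcan with age in 304Q/304Q gave -0.016 in edgeR and -0.0142 in DESeq2, and Sptbn4 between ages -0.0037, and -0.0119 with the block. With a library left out, the ranges were -0.0047 to 0.1006 for Ank3 at 12 months, -0.0318 to 0.1082 for Sptbn4, -0.0654 to 0.0093 for Hapln2, -0.048 to 0.0206 for Cntnap1 and -0.024 to 0.0636 for Cntnap2 at 2 months, -0.0691 to 0.0741 for Sptbn4 between ages and -0.019 to 0.0428 for Bcan with age in 304Q/304Q. Cntn1 at 2 months was 0 at the precision given. The cause of these changes was not tested. Hapln2, with the fewest counts of the 10, had the widest standard errors among the genes called.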
